A study of Homo sapiens with 24 samples.

Results

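PF382 is a human T-cell acute lymphoblastic leukemia line, and 4 of the 24 deposited libraries form its azacitidine (AZA) dose series. They are the PF382 libraries whose titles begin with OLC, exposed to AZA at 125, 250 or 500 nM or left untreated, with 1 library per condition. Exposure lasted 96 h, with drug added every 24 h to cells in logarithmic growth. A second untreated PF382 library, with the title prefix OC, belongs to the decitabine set of the study and served as a check on every change. The other libraries hold PF382 at 5, 12.5 and 25 nM decitabine and the T-cell lines TLOm1 and HH, of which TLOm1 received the same AZA doses. The title of the 250 nM library reads PF82, while its cell line label reads PF382.

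AZA is a cytidine analog that is built into RNA and, after reduction, into DNA. In DNA it traps the DNA methyltransferases that copy the methylation of CG dinucleotides onto the new strand, so that methylation is diluted as cells divide, and genes held silent by promoter methylation, among them the cancer-testis genes, can be transcribed. In RNA it disturbs RNA processing and protein synthesis, and cells under such stress use the integrated stress response, in which ATF4 turns on genes for amino acid supply.

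The 3 AZA libraries held 25535937, 23551947 and 25073959 counts in order of dose, against 22914158 in the untreated OLC library and 15348774 in the untreated OC library, over 25559 genes. Over all 24 libraries the totals ranged from 13892514 to 32496676. Values are given as CPM, the usual counts scaled to library size, with sizes adjusted by the trimmed mean of M-values, and are compared between libraries and not between genes of different length. A count of 0 allows up to 3 counts, which covers counting error only. All 21 markers of T-lineage lymphoblasts that were looked up (CD3, CD4, CD8, RAG, CD1 and related genes) reached 1 CPM in at least 1 of the 5 libraries. Their summed level was 5281, 5105 and 4644 CPM at the 3 AZA doses, against 6523 and 5381 CPM in the untreated libraries. The sum leans on a few members. TCF7 was at 1869, 1826 and 1584 CPM, against 2382 and 1633 CPM, and RAG1 at 888, 769 and 607 CPM, against 1191 and 1251 CPM. Some members went the other way. CD8A was at 37.9, 40.5 and 39.1 CPM, against 19.9 and 23.4 CPM, and CD34 at 3.90, 4.69 and 3.17 CPM, against 1.23 and 1.23 CPM. Summed markers of B cells (54.1 to 59.4 CPM with AZA, against 48.0 to 64.6 CPM untreated) and of myeloid cells (192 to 195 CPM with AZA, against 198 to 206 CPM untreated) lay close together. Erythroid and megakaryocyte genes summed to 509, 422 and 310 CPM with AZA, against 423 and 490 CPM untreated, and cytotoxic and NK cell genes to 36.7, 36.7 and 44.3 CPM with AZA, against 30.1 and 25.5 CPM untreated. The fibroblast and endothelial list summed to 325, 351 and 309 CPM, against 296 and 227 CPM. Most of these sums was VIM alone, at 294, 318 and 274 CPM, against 263 and 198 CPM. At 500 nM the T-lymphoblast, myeloid and erythroid sums were below both untreated sums, and the cytotoxic, fibroblast and endothelial sums above both. Epithelial genes summed to 50.7, 58.9 and 77.0 CPM with AZA, against 30.9 and 32.5 CPM untreated, with 6 of the 22 at 0 in all 5 libraries and 9 reaching 1 CPM in any. In such bulk libraries, fewer cells of a type and less RNA per cell cannot be told apart. The part of these marker levels in the results below was not tested.

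The untreated libraries of PF382 differed from each other more than the AZA doses did. The chi-square per degree of freedom was 36.2 between the untreated OLC and OC libraries, 4.86 between 125 and 250 nM, 14.4 between 250 and 500 nM and 25.6 between 125 and 500 nM. The median absolute log2 difference per gene was 0.13 between 125 nM AZA and untreated OLC and 0.21 between 500 nM AZA and untreated OLC, against 0.27 between the untreated libraries themselves. Of 13057 genes with a mean of at least 1 CPM, 686 were at least 2-fold higher in untreated OLC than in untreated OC, and 106 were at least 2-fold lower. The library set and any difference between the untreated cultures cannot be told apart, and a fall is therefore read against both libraries.

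The first comparison asked which genes the 3 AZA doses as a group moved away from the untreated OLC library. Of 17841 genes tested, 64 (0.359%) were called higher and 84 (0.471%) lower by the quasi-likelihood F test of edgeR at a Benjamini-Hochberg adjusted p of 0.05. At an unadjusted p of 0.05, 1221 were higher and 946 lower. Of the genes called higher, 60 (0.336% of the genes tested) had all 3 doses above both untreated libraries. Of those called lower, 49 (0.275%) had all 3 doses below both, 18 had the OC library within the range of the doses and 17 had all 3 doses above the OC library. Lying above or below both libraries is common by itself, since 4176 genes (23.4%) had all 3 doses above both and 2474 (13.9%) below both, whether called or not. The spread in the test comes from doses and other groups, with 1 untreated library per comparison, so each p reflects spread among single libraries, which may be technical.

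**Figure D1:**
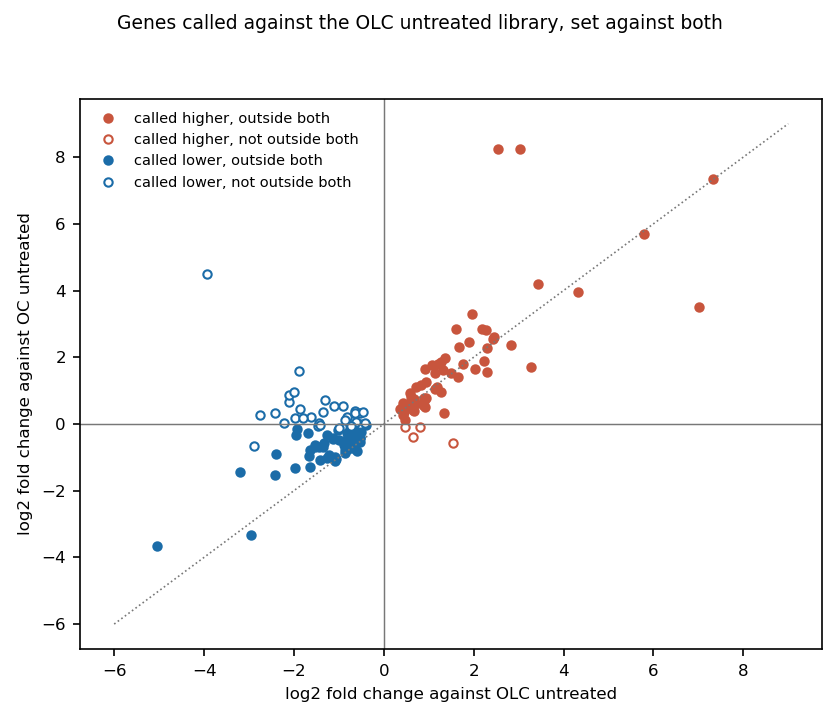
Each point is a gene called against the untreated OLC library, with its log2 fold change for AZA against that library on the x axis and against the untreated OC library on the y axis, and the dotted line marks equal values. The 64 genes called higher (median 1.17 against OLC, 1.21 against OC) have like medians on both axes, whereas the 84 called lower (median -1.11 against OLC, -0.25 against OC) do not, and open points are those not outside both untreated libraries.

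Set against the OC library alone, with all genes tested the same way, 1757 genes (9.85%) were called higher and 1355 (7.59%) lower. The median over all genes was 0.14 on the log2 scale against OC and 0.03 against OLC. Of the 64 rises, 58 were also called against OC. Of the 84 falls, 25 were also called lower against OC and 7 were called higher.

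Among the largest rises were RAPSN and a pair of receptor genes. RAPSN, which encodes the rapsyn protein that clusters acetylcholine receptors at the neuromuscular junction, was at 8.16, 11.2 and 8.73 CPM at 125, 250 and 500 nM, against 0.164 CPM in untreated OLC and 0.175 CPM in untreated OC. All 3 doses lay far above both, at a log2 fold change of 5.78 (SE 0.71, adjusted p = 0.00075, edgeR), though the untreated OLC value rests on 4 counts. ERBB3, a receptor of the EGF receptor family that binds neuregulins, was at 6.76, 9.74 and 10.9 CPM with AZA, against 0.451 and 0.584 CPM untreated (log2 fold change 4.32, SE 0.81, adjusted p = 0.016, edgeR). GPR17, a G protein-coupled receptor known from oligodendrocyte precursors, was at 7.08, 8.95 and 13.2 CPM, against 0.902 and 0.526 CPM untreated (3.42, SE 0.59, adjusted p = 0.0098). All 3 genes were below 1 CPM in both untreated libraries and above it at every dose.

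Other rises started from a higher level in untreated cells. HBEGF, a ligand of the EGF receptor and of ERBB4, was at 122, 157 and 243 CPM, against 37.2 and 46.7 CPM untreated (log2 fold change 2.23, SE 0.33, adjusted p = 0.0042), with every AZA library at least 2-fold above both. GIMAP6, a GTPase of lymphocyte survival and autophagy, was at 19.4, 27.3 and 33.0 CPM, against 4.84 and 4.38 CPM untreated (2.46, SE 0.43, adjusted p = 0.011). DTX1, an E3 ligase and target of NOTCH signaling, was at 463, 579 and 527 CPM, against 204 and 133 CPM untreated (1.36, SE 0.18, adjusted p = 0.0031). It was the only one of 31 tested NOTCH and leukemia oncogene members called higher, and none was called lower. ANXA2, a membrane- and actin-binding annexin, was at 45.4, 50.7 and 40.8 CPM, against 14.3 and 9.17 CPM untreated (1.67, SE 0.33, adjusted p = 0.025). OAS3, a sensor of double-stranded RNA, was at 74.4, 88.9 and 92.1 CPM, against 47.7 and 37.8 CPM untreated (0.84, SE 0.16, adjusted p = 0.018). All 3 doses lay above both untreated libraries in these 5, as they did in 23.4% of all genes tested. For HBEGF and GIMAP6 the choice of the largest rises required this. With each dose left out in turn, OAS3 lost its call in 2 of 3 settings and ANXA2 in 1, while HBEGF, GIMAP6 and DTX1 kept theirs.

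The other genes among the 15 largest rises outside both libraries had log2 fold changes from 1.89 to 3.27. They were DGKG (3.27), a diacylglycerol kinase, SLC39A4 (3.02), a zinc importer, DOC2GP (2.55), a pseudogene, TCIRG1 (2.43), a subunit of the vacuolar proton pump, LPAR6 (2.29), a receptor for lysophosphatidic acid, VAMP8 (2.28), a SNARE of vesicle fusion, KIF5A (2.19), a kinesin motor, RUNDC2C (2.02), MAP3K6 (1.96), a stress-activated kinase, and SHROOM1 (1.89), an actin-binding protein. SLC39A4 and DOC2GP were at 0 counts in untreated OC and at no more than 2.07 CPM at any dose, and reads of the pseudogene may be shared with its parent gene. Of the 15, 11 kept their call without each dose in turn. ERBB3 lost it without 250 nM (adjusted p = 0.054), and TCIRG1, LPAR6 and RUNDC2C lost it without 250 nM and without 500 nM.

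**Figure D2:**
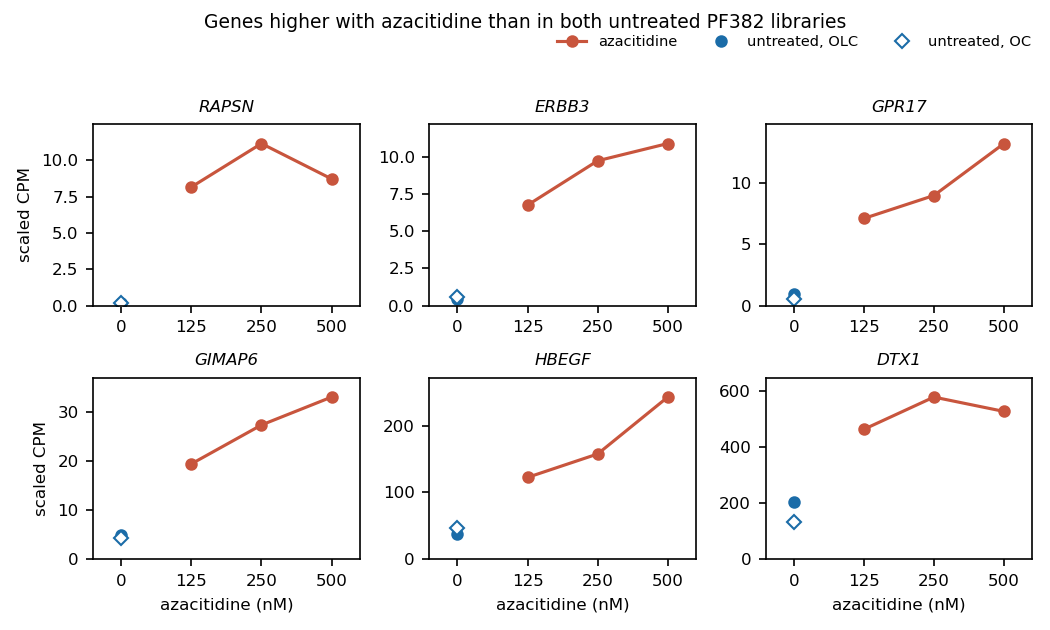
Scaled CPM of 6 genes at 125, 250 and 500 nM AZA (red) and in the untreated OLC library (filled blue) and OC library (open blue) at 0 nM, 1 library per point. All 3 AZA points lie above both untreated points in every panel, and HBEGF climbs to 243 CPM at 500 nM.

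Falls that held against both untreated libraries included an enzyme of glycogen synthesis and a pair of leukocyte proteins. GBE1, the glycogen branching enzyme, was at 33.0, 25.0 and 13.5 CPM with AZA, against 93.8 and 59.2 CPM untreated (log2 fold change -1.98, SE 0.30, adjusted p = 0.0052 against OLC, and -1.31, adjusted p = 0.011 against OC). THEMIS, a regulator of T-cell receptor signaling during thymocyte selection, was at 57.4, 42.0 and 30.2 CPM, against 136 and 105 CPM (-1.65, adjusted p = 0.015 against OLC, and -1.28, adjusted p = 0.0099 against OC). LSP1, an actin-binding protein of leukocytes, was at 2.31, 1.77 and 2.28 CPM, against 11.3 and 3.97 CPM (-2.41, SE 0.18, adjusted p = 1.5e-06 against OLC, and -0.90, adjusted p = 0.014 against OC). CAPSL, a little-studied calcium-binding protein, was at 0.759, 0.276 and 0.214 CPM, against 3.28 and 4.26 CPM (-2.96, adjusted p = 0.033). These were the 4 of the 15 largest falls that were called lower against both libraries. With each dose left out in turn, CAPSL lost its call against OLC in 2 of 3 settings and THEMIS in 1.

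The other 11 lost their call against the OC library. Every AZA value lay below both libraries, but the choice of these 15 required that. AK4, a mitochondrial adenylate kinase, was at 10.2, 5.52 and 1.67 CPM, against 52.9 CPM in untreated OLC and 15.7 CPM in untreated OC (-3.19, adjusted p = 0.016 against OLC, and -1.44, adjusted p = 0.12 against OC). ITGAL, the integrin chain of LFA-1 that binds ICAM proteins, was at 68.4, 42.3 and 35.4 CPM, against 152 and 83.6 CPM (-1.64, adjusted p = 0.0079 against OLC, and -0.78, adjusted p = 0.066 against OC). JAM3, a junctional adhesion molecule, had the smallest adjusted p of these falls against OLC (2.1e-07, log2 fold change -1.94) and was at 48.4, 43.3 and 40.5 CPM, against 169 CPM in OLC but 48.9 CPM in OC. Its change against OC was -0.15 (adjusted p = 0.47), so the call depends on the untreated library chosen. The remaining 8 were GCET2, WNK4, NRN1, CD48, PGK1, BNIP3L, PLXDC1 and GREB1, with log2 fold changes from -2.42 to -1.28 against OLC and from -1.52 to -0.27 against OC. Without each dose in turn, 6 of the 15 kept their call against OLC.

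Some falls were seen only against the untreated OLC library. MKNK2, a kinase of the translation factor eIF4E, was at 154, 149 and 142 CPM with AZA, against 367 CPM in untreated OLC and 90.7 CPM in untreated OC, and was thus called lower against the one (-1.31, adjusted p = 6e-05) and higher against the other (0.71, adjusted p = 0.004). RORA, a nuclear receptor, was at 3.76, 2.60 and 2.71 CPM, against 11.8 CPM in OLC and 2.69 CPM in OC. The ephrin ligand EFNA3 was at 2.42, 1.93 and 1.5 CPM, against 7.22 CPM in OLC and 0.643 CPM in OC, and turned from -1.89 against OLC to 1.59 against OC (adjusted p = 0.037). The same turn, without a call against OC, was seen for DDIT4 (-2.12 against OLC, 0.87 against OC), PFKFB3 (-2.12, 0.64), SLC16A3 (-2.00, 0.97) and ADM, which had 1.97 CPM in untreated OLC and 0 counts in untreated OC. These 4 genes are textbook targets of low oxygen or nutrient stress. Of the 84 falls, 28 were in genes at least 2-fold higher in untreated OLC than in untreated OC.

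**Figure D3:**
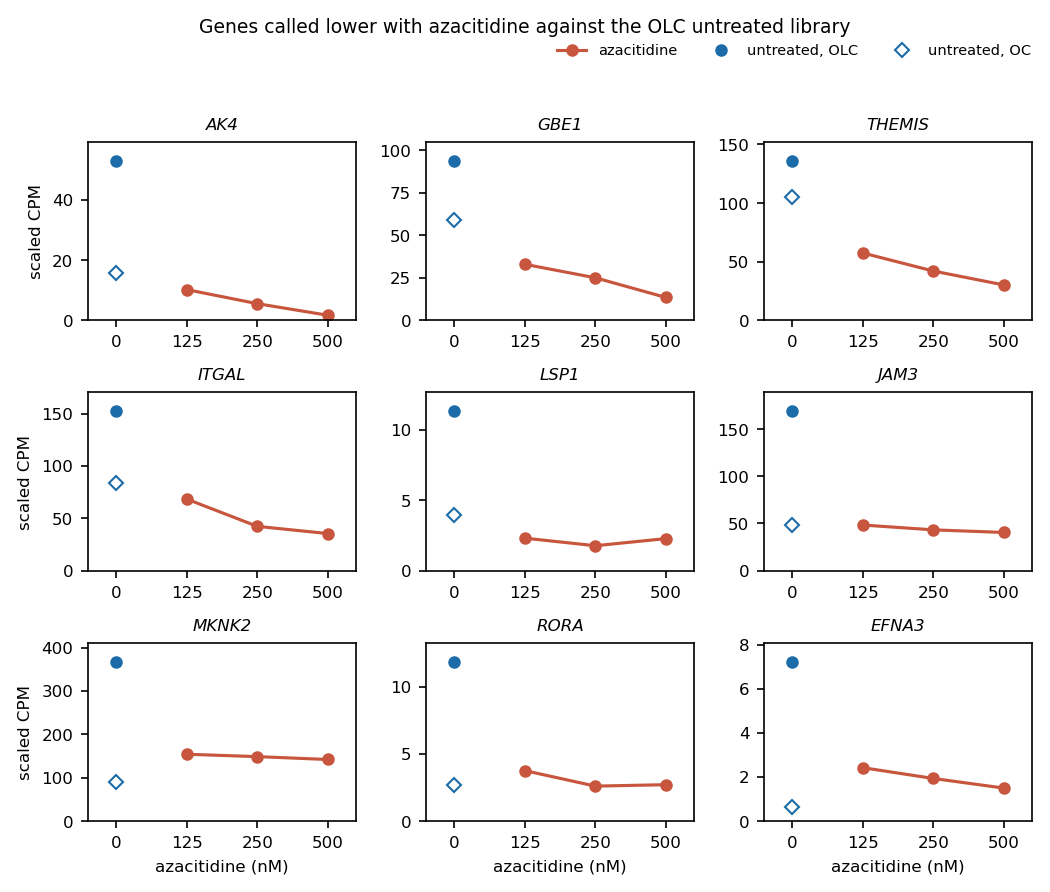
Scaled CPM of 9 genes called lower against the untreated OLC library, at 125, 250 and 500 nM AZA (red) and in the untreated OLC (filled blue) and OC (open blue) libraries at 0 nM, 1 library per point. GBE1, THEMIS, LSP1, AK4 and ITGAL have both untreated points above the doses, JAM3 has the OC point beside them, and MKNK2 and EFNA3 have it below them.

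Genes of glycolysis and the response to low oxygen carried this difference between untreated libraries as a group. Of 39 tested, 10 were called lower and 0 higher, where 0.471% and 0.359% were called over all genes. By DESeq2 22 and by limma-voom 14 were lower, where 230 and 186 of the 17841 genes tested were. Only 3 of the 10 lay below both untreated libraries. The group's median log2 fold change was -0.98 against OLC and -0.04 against OC, and the untreated OLC library stood above untreated OC by a median of 0.99. PGK1, a glycolytic kinase, was at 594, 530 and 399 CPM, against 1370 and 827 CPM (-1.43 against OLC, and -0.70 with an adjusted p of 0.10 against OC). BNIP3, a mitophagy receptor induced by low oxygen, was at 22.2, 13.4 and 5.02 CPM, against 101 and 21.5 CPM (-2.89 against OLC, and -0.66 with an adjusted p of 0.51 against OC). The higher level of this group in the untreated OLC library and the effect of AZA cannot be told apart in the comparison with OLC.

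The dose slope rests on the treated libraries only. It gives the log2 change per doubling of the AZA dose, and 990 genes (5.55%) rose with dose and 660 (3.7%) fell, at an unadjusted p of 0.05 2146 and 1767. The slope leans on the 500 nM library: without it 26 genes rose and 4 fell, whereas without 125 nM 254 rose and 138 fell, and without 250 nM 867 rose and 630 fell. The same can be seen without a test, since 233, 386 and 601 genes were at least 2-fold above both untreated libraries at 125, 250 and 500 nM, and 37, 63 and 136 were at least 2-fold below both.

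**Figure D4:**
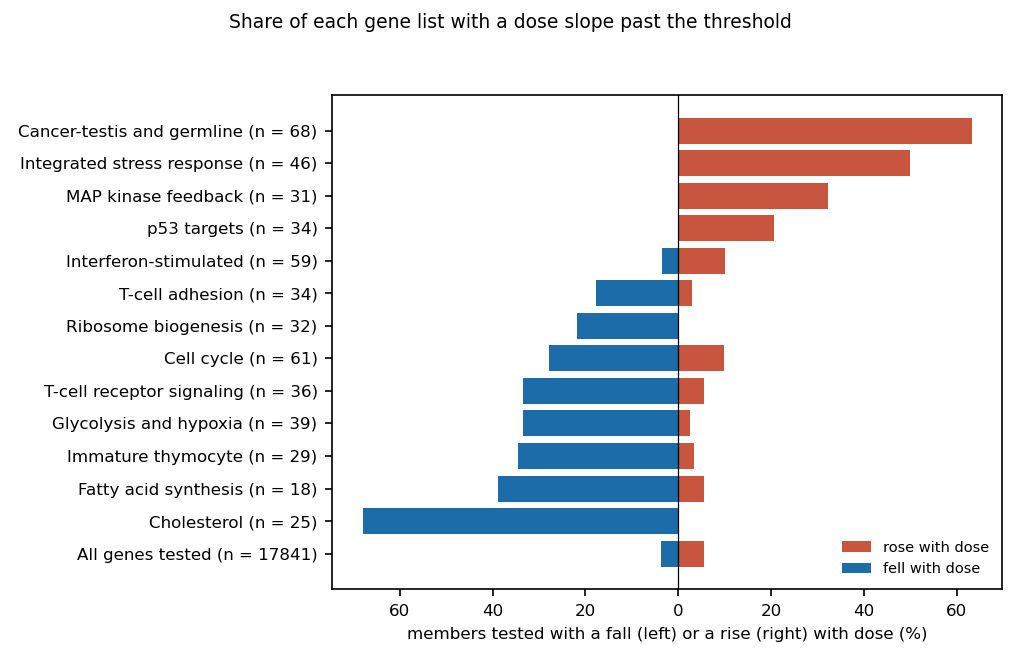
Share of the tested members of each gene list whose expression rose (right, red) or fell (left, blue) with AZA dose past an adjusted p of 0.05, with the number tested in brackets. Cholesterol genes fell in 68.0% of the tested members and stress response genes rose in 50.0%, the germline bar (63.2%) holds members that passed the filter on low counts through treated libraries alone and is not comparable with the others, and the bottom bar gives all genes tested (5.55% rose, 3.7% fell).

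Among the genes that climbed most steeply were cancer-testis and germline genes, which are normally transcribed in germ cells and are silent in most other tissues. DAZL, an RNA-binding protein of germ cells, was at 0, 1.62 and 27.7 CPM at 125, 250 and 500 nM, against 0 counts in both untreated libraries (slope adjusted p = 0.008). PAGE5, a cancer-testis gene of the X chromosome, was at 2.10, 11.9 and 34.4 CPM, against 0.0410 and 0.0584 CPM untreated (slope 1.94 per doubling, SE 0.16, adjusted p = 6.4e-10). TKTL1, a transketolase-like gene, was at 0.650, 4.02 and 22.2 CPM, against 0.205 and 0.234 CPM (2.51, SE 0.15, adjusted p = 8.2e-14). All 3 were close to silent at the lowest dose or below and were highest at 500 nM.

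Germline genes with a level in untreated cells climbed as well. PRAME, a cancer-testis antigen that represses retinoic acid signaling, was at 17.3, 37.7 and 57.8 CPM, against 1.89 and 1.81 CPM untreated (slope 0.86, SE 0.08, adjusted p = 4.6e-09). STAG3, the meiotic cohesin subunit, was at 29.8, 61.1 and 117 CPM, against 24.7 and 18.8 CPM (0.98, SE 0.07, adjusted p = 2.4e-11). Neither was called over the 3 doses together (adjusted p = 0.19 and 0.51 by edgeR), a test that takes the 3 doses as replicates of each other. MAGEA6 (0, 0.197 and 4.81 CPM, against 0 in both untreated libraries), PASD1, MAGEB2 and SSX1 also rose with dose, as did WDFY3, an autophagy scaffold outside the germline list. MAGE, SSX and PAGE genes have near-identical copies, among which reads could have been shared, so the values of single members are uncertain. Without 500 nM, the slopes of TKTL1, STAG3, PAGE5 and PRAME kept their call, while those of DAZL, MAGEA6, PASD1, MAGEB2 and SSX1 (adjusted p = 1 each) and WDFY3 (adjusted p = 0.18) lost it. Of all 49 genes whose slope was recomputed this way, 10 kept their call without 500 nM.

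Over the whole list of 92 germline genes in the files, 46, 65 and 72 had at least 1 read at 125, 250 and 500 nM, against 33 in untreated OLC and 31 in untreated OC, and 15 had none in any of the 5 libraries. Their summed level was 194, 318 and 642 CPM, against 161 and 166 CPM. Of the 68 that passed the filter on low counts, 43 (63.2%) rose with dose and 0 fell (DESeq2 30, limma-voom 45). Members at 0 without drug could pass that filter only through treated libraries, so this share describes the tested members and not the 92. For the 3 doses together against untreated OLC, edgeR called 0 of the 68 in either direction, with 7 higher and 0 lower at an unadjusted p of 0.05, DESeq2 called 4 higher, and limma-voom 0. Across all genes, 7542 had 0 counts in both untreated libraries, of which 2070 had a count at some dose and 73 reached 1 CPM at 500 nM. LINC00162 alone reached 1 CPM at all 3 doses, and its mean over the doses was at least 25.4-fold above the limit that 3 counts over both untreated libraries allow. Over the doses together, edgeR did not call it against untreated OLC, though it did against untreated OC. No gene at 1 CPM or more in both untreated libraries was at 0 at all 3 doses.

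Promoter sequence is shown for genes that rose, since CG dinucleotides are the sites whose methylation AZA lowers. The windows are the 250 bases before the annotated start from RefSeq (GRCh38.p14, gene strand, 5′ to 3′), while the counts were made on GRCh37.p2, and where a gene has several starts the one with the most CG is printed. DAZL lies at chr3:16605424-16605673 (minus strand), STAG3 at chr7:100177668-100177917 (plus strand), PRAME at chr22:22559266-22559515 (minus strand), HBEGF at chr5:140346604-140346853 (minus strand) and GIMAP6 at chr7:150632386-150632635 (minus strand). Capitals mark each CG, a motif that reads the same on both strands.
DAZL: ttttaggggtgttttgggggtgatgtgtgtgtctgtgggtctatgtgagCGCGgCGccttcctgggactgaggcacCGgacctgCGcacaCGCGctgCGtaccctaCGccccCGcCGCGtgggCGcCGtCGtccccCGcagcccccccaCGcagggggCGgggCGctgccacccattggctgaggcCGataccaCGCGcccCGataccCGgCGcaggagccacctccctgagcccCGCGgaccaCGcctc
STAG3: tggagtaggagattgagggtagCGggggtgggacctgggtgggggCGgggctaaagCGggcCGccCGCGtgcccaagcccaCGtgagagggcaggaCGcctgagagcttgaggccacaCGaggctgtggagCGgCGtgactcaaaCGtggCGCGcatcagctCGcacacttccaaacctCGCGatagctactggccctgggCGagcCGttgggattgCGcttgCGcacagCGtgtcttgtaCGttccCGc
PRAME: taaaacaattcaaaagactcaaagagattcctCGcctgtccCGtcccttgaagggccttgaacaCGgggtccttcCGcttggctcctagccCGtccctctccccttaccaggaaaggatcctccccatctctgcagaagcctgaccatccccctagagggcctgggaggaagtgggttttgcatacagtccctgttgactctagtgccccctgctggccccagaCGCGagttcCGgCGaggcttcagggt
HBEGF: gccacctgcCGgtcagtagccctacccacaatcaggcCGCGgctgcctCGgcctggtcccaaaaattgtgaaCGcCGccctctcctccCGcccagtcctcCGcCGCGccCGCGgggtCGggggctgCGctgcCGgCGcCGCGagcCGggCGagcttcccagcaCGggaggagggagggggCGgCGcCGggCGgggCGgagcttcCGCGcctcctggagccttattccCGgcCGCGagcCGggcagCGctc
GIMAP6: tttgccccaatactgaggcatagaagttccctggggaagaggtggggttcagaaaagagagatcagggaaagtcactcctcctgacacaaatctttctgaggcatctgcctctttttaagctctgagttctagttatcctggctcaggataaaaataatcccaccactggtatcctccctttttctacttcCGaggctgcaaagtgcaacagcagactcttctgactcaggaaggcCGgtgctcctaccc

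These windows hold 28 CG for DAZL, 24 for STAG3, 9 for PRAME, 33 for HBEGF and 2 for GIMAP6. Over 35116 RefSeq windows of this length the median is 11 CG, and 93.9% hold at least 1. With 1 window per gene, the germline genes that rose with dose had a median of 15 CG (quartiles 10 and 20.2, 36 of the 43 matched), against 22 over the tested genes that matched. Only 62.1% of all tested genes matched a window by symbol, so that comparison is void. Methylation was not measured in these libraries.

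Genes of the integrated stress response rose with dose. Of 46 tested, 23 (50.0%) rose and 0 fell (DESeq2 23, limma-voom 25), where 5.55% rose and 3.7% fell over all genes. All 3 doses lay above both untreated libraries for 21 (45.7%), where this held for 23.4% of all genes. The median log2 ratio to untreated OLC was 0.01 at 125 nM, 0.18 at 250 nM and 0.46 at 500 nM, against 0.01, 0.01 and 0.02 over all genes. ATF3, a stress-induced transcription factor, was at 4.66, 8.67 and 16.7 CPM, against 6.03 and 2.40 CPM untreated (slope 0.92, SE 0.09, adjusted p = 1.3e-09). CTH, the enzyme that makes cysteine from cystathionine, was at 5.31, 8.24 and 14.7 CPM, against 3.57 and 3.1 CPM (0.74, SE 0.08, adjusted p = 6.3e-08). ADM2, a peptide hormone, was at 3.22, 7.10 and 17.6 CPM, against 2.95 and 0.935 CPM (1.24, SE 0.10, adjusted p = 2.6e-11), and STC2, a secreted glycoprotein, was at 0.253, 0.867 and 4.52 CPM, against 0.820 and 0.117 CPM. At 125 nM ATF3 and STC2 lay between the untreated values, and at 500 nM all 4 genes lay above both. For the doses together, edgeR called 0 members higher and 1, DDIT4, lower.

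Genes of cholesterol metabolism fell with dose. Of 25 tested, 17 (68.0%) fell and 0 rose (DESeq2 13, limma-voom 17), where 3.7% fell and 5.55% rose over all genes. The list's median log2 ratios to untreated OLC were -0.29, -0.49 and -0.79 at the 3 doses. INSIG1, which retains the sterol sensor SCAP in the endoplasmic reticulum and is itself a target of SREBP, was at 267, 186 and 117 CPM, against 477 and 257 CPM untreated (slope -0.60, SE 0.05, adjusted p = 7.4e-10). Lanosterol synthase LSS was at 102, 83.5 and 60.8 CPM, against 123 and 99.7 CPM (-0.37, adjusted p = 1.8e-06), and the sterol reductase DHCR7 was at 66.4, 54.4 and 43.3 CPM, against 81.8 and 57.2 CPM (-0.31, adjusted p = 5e-05). At 125 nM these 3 genes were all above untreated OC, and at 500 nM below both. The list as tested over the doses together had 0 calls by edgeR, DESeq2 and limma-voom, with 0 higher and 4 lower at an unadjusted p of 0.05. Every dose lay below both untreated libraries for 13 of the 25 (52.0%), where this held for 13.9% of all genes. Fatty acid genes followed in part, with 7 of 18 falling and 1 rising, and of the glycolysis list 13 of 39 fell and 1 rose, among them TPI1 (slope -0.41).

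**Figure D5:**
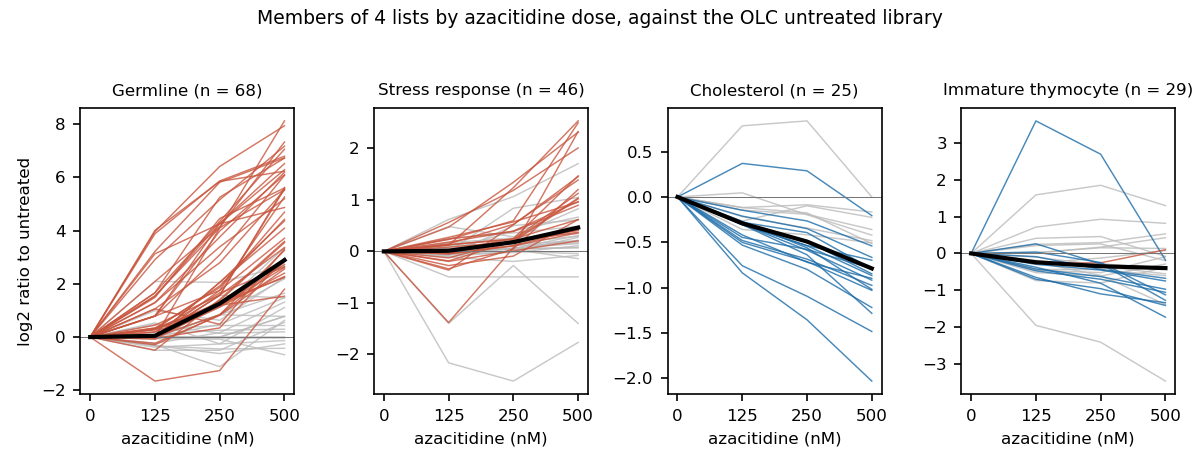
Log2 ratio of CPM (0.1 CPM added) to the untreated OLC library for each tested member of 4 lists by AZA dose, with 1 line per gene, red where the gene rose with dose, blue where it fell and gray otherwise, and the median in black. The median of the stress response list reaches 0.46 at 500 nM and that of the cholesterol list -0.79, and each panel has its own y axis.

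Markers of the immature thymocyte, the stage that T-lineage leukemia resembles, fell with dose in 10 of 29 members tested (34.5%, where 3.7% fell over all genes) and rose in 1 (3.45%, where 5.55% rose over all genes). RAG2, a subunit of the recombinase that joins receptor gene segments, was at 38.3, 28.4 and 14.9 CPM, against 49.7 and 48.7 CPM untreated (slope -0.67, SE 0.09, adjusted p = 2.4e-06). Its partner RAG1 was at 888, 769 and 607 CPM, against 1191 and 1251 CPM (-0.27, adjusted p = 0.00019). CD7, an early T-lineage surface protein, was at 38.9, 26.7 and 13.4 CPM, against 32.4 and 22.1 CPM (-0.76, adjusted p = 3.3e-06), and so was below both untreated values only at 500 nM. The RAG genes lay below both untreated libraries at every dose. For the doses together edgeR called 0 of the list (1 higher and 6 lower at an unadjusted p of 0.05, DESeq2 1 lower, limma-voom 4 lower).

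T-cell receptor signaling genes had 3 of 36 members called lower over the doses together, all below both untreated libraries, and 0 higher, where 0.471% and 0.359% were called over all genes. PTPRC, the CD45 phosphatase, was at 155, 124 and 124 CPM, against 246 and 229 CPM untreated (log2 fold change -0.87, SE 0.16, adjusted p = 0.015 against OLC). SKAP1, an adaptor for integrin activation, was at 18.9, 17.1 and 13.6 CPM, against 27.5 and 24.1 CPM (-0.73, adjusted p = 0.023). SH2D1A, the SAP adaptor, was at 103, 87.5 and 71.8 CPM, against 136 and 148 CPM (-0.64, adjusted p = 0.045). All 3 were called lower against OC as well. With each dose left out in turn, each lost its call against OLC in 2 of 3 settings, and none kept it without 500 nM. By dose, 12 members (33.3%) fell and 2 (5.56%) rose, where 3.7% fell and 5.55% rose over all genes. RASGRP1, which activates RAS downstream of the receptor, was at 18.5, 11.2 and 8.37 CPM, against 34.6 and 46.6 CPM (slope -0.58, SE 0.07, adjusted p = 1e-06). Outside the list, IL7R, the interleukin-7 receptor chain, was at 4.52, 2.56 and 0.641 CPM, against 13.4 and 13.7 CPM (-1.28, SE 0.20, adjusted p = 3e-05).

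Among T-cell adhesion genes, JAM3 and ITGAL were called lower over the doses together and none of 34 higher. Over all genes, 0.471% were called lower and 0.359% higher. Neither JAM3 nor ITGAL was called against the OC library. By dose, 6 of the 34 (17.6%) fell and 1 (2.94%) rose, where 3.7% fell and 5.55% rose over all genes. ITGA4, the integrin chain of VLA-4, was at 427, 325 and 233 CPM, against 565 and 570 CPM (slope -0.44, SE 0.05, adjusted p = 5.7e-08). Of 61 cell cycle genes, 17 (27.9%) fell with dose and 6 (9.84%) rose, by small steps. CDK1, the mitotic kinase, was at 179, 165 and 128 CPM, against 169 and 244 CPM (-0.24, adjusted p = 0.00055), and the CDK4 and CDK6 inhibitor CDKN2D was at 47.8, 56.3 and 73.2 CPM, against 48.7 and 36.0 CPM (0.31, adjusted p = 0.0005). Over the doses together, 0 of the 61 were called by edgeR, DESeq2 or limma-voom, with 1 higher and 3 lower at an unadjusted p of 0.05. RB1, the retinoblastoma protein, which stands outside that list, was at 331, 301 and 265 CPM, against 455 and 529 CPM (log2 fold change -0.60, SE 0.13, adjusted p = 0.03 against OLC, and -0.82 against OC). Its call against OLC was lost in 2 of the 3 settings with 1 dose left out.

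Feedback genes of MAP kinase signaling rose with dose in 10 of 31 members (32.3%, where 5.55% rose over all genes) and fell in 0. DUSP8, a phosphatase of JNK and p38, was at 0.397, 0.828 and 6.09 CPM, against 0.820 and 0.350 CPM (slope 2.28, adjusted p = 7.6e-06), with the 250 nM value at the upper untreated value and only 500 nM well above it. DUSP10 was at 2.35, 2.25 and 5.66 CPM, against 2.95 and 2.16 CPM, so that its slope of 0.70 rests on 500 nM and was -0.069 without it. Of 34 p53 targets, 7 (20.6%) rose with dose and 0 fell, and the DNA repair gene DDB2 was called lower over the doses together (-0.75, but -0.15 with an adjusted p of 0.49 against OC). Of 59 interferon-stimulated genes, OAS3 was called higher, 0 were called lower, and 6 (10.2%) rose and 2 (3.39%) fell with dose.

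The PF382 decitabine libraries give the same genes under the related drug, a deoxycytidine analog that enters DNA only. Doses and untreated library differ, so values are set side by side. Over all genes tested, 1822 (10.2%) rose and 1287 (7.21%) fell with decitabine dose. Of the 68 germline genes 49 rose with decitabine dose and 0 fell, where 43 rose with AZA dose. DAZL was at 0.0514, 9.12 and 67.8 CPM and STAG3 at 25.1, 56.9 and 105 CPM at 5, 12.5 and 25 nM decitabine. Of the 46 stress response genes 4 rose and 17 fell with decitabine dose, where 23 rose and 0 fell with AZA dose. CTH was at 4.52, 4.12 and 4.41 CPM and ADM2 at 1.59, 0.883 and 0.785 CPM with decitabine. The germline counts share the limit of the filter given above. Among the stress response genes tested, more rose than fell with AZA dose and more fell than rose with decitabine dose. Cholesterol genes fell with decitabine dose in 13 of 25 and rose in 1. Of 32 ribosome biogenesis genes, 29 fell with decitabine dose and 7 with AZA dose. All 3 decitabine doses were above the untreated OC library for 63 of the 64 genes called higher with AZA, and below it for 58 of the 84 called lower, where this held for 5996 and 4512 of the 17841 genes tested. Because no dose was shared, the difference between the drugs was not tested.

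TLOm1, an adult T-cell leukemia line, received the same AZA doses, so the difference between the lines was tested directly. Of 17841 genes, 20 (0.112%) had a higher and 26 (0.146%) a lower effect in PF382 than in TLOm1. RAPSN was among the higher, with a log2 fold change of 5.78 in PF382 and -0.53 in TLOm1 (difference 6.32, SE 1.01, adjusted p = 0.024), and the difference was 6.18 (adjusted p = 0.012) when each line was set against its OC untreated library. The slopes differed in more genes, with 441 (2.47%) higher and 429 (2.4%) lower in PF382. Of the 68 germline genes tested, 14 had a higher slope in PF382 than in TLOm1 and 0 a lower one. In TLOm1, 43 of the 68 rose with dose and 3 fell, where 1955 and 2040 of the 17841 genes tested did. The limit of the filter given above applies to these germline counts too. The slope was higher in PF382 than in TLOm1 for 13 of 25 cholesterol genes and for 19 of 61 cell cycle genes, and lower for 0 in either list. In TLOm1 itself 22 of the 25 and 42 of the 61 fell with dose, where 2040 of the 17841 genes tested fell. Interferon-stimulated genes had a lower slope in PF382 for 15 of 59 and a higher one for 1. ITGAL fell with dose in PF382 (slope -0.48) and rose with dose in TLOm1 (slope 0.23), at a difference of slopes of -0.71 (edgeR adjusted p = 6.4e-08). ITGA4 also had a lower slope in PF382 than in TLOm1 (difference -0.61, edgeR adjusted p = 1.9e-07).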

How the data were processed

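PF382 cells were profiled by RNA-seq in 1 library per condition. The deposited files hold raw read counts per gene symbol, made by the authors on GRCh37.p2, and the submitters' processing notes name STAR, DESeq2 and limma without versions or roles. Which counter and annotation made them, and whether strand was used, is not given in the sources used here. By the labels the RNA was poly-A RNA in one field and rRNA-depleted RNA in another, made into stranded libraries. If counting ignored strand, reads of a gene and its antisense partner cannot be told apart.

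Counts were analysed in R 4.3.3 with edgeR 4.0.16, using TMM normalization and the robust quasi-likelihood F test, after filterByExpr (minimum count 10, minimum total count 15) had kept 17841 of 25559 genes. The model had all 24 libraries and 1 coefficient for each of 12 groups (12 residual degrees of freedom), so that the spread is shared between lines and drugs, and the lone untreated library is assumed to vary like the others. The main contrast set the mean of the 3 AZA doses against the untreated OLC library. The dose slope came from a second model with 1 slope on log2 dose for each of 6 treated groups (18 coefficients, 6 residual degrees of freedom). Benjamini-Hochberg adjustment ran over all genes tested, at a threshold of 0.05. The decitabine slope and the difference of slopes between lines came from the same model and were added after results had been seen. DESeq2 1.42.0 and limma-voom (limma 3.58.1) were run as alternatives, and the offset for single-dose ratios was 0.1 CPM.

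On simulated data for 17841 genes with 100 changed genes per size, the main contrast recovered 77% at a log2 change of 1 and 97% at 2 with 8 false calls, and the slope test recovered 54% at 0.5 and 88% at 1 with 7 false calls. Changed genes were drawn from those at 1 CPM or more in the untreated OLC libraries of PF382 and TLOm1, so silent genes were not covered. No shift of the lone untreated culture was simulated, so the false calls do not measure errors from such a shift.

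Genes named were the 15 largest rises and 15 largest falls outside both untreated libraries at a mean of at least 1 CPM, the 6 steepest slopes in each direction, up to 4 members of each of 34 gene lists (by the main contrast and, added later, by the slope), the 5 called genes with the largest fold between the untreated libraries, and the 8 with the smallest adjusted p between lines, from which the text shows a part. Provisional identifiers were passed over, except LINC00162, which was named after its values were seen. Members and lists were chosen with earlier results of these data known. Of 1105 listed genes, 1095 were found in the files. Not every gene chosen this way is reported here.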

Additional observations from a re-analysis of the deposited data

Results flagged for a closer look

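The effect of AZA differed between PF382 and TLOm1, which received the same doses, in 20 genes higher and 26 genes lower in PF382 (edgeR interaction contrast, Benjamini-Hochberg adjusted p of 0.05). The 8 with the smallest adjusted p were RAPSN, with a difference of 6.32 on the log2 scale, and 7 that were lower in PF382. These 7 were JAM3 (-2.28), LSP1 (-2.41), the NOTCH- and stress-linked NDRG1 (-2.12), the kinase gene LMTK3 (-1.88), RORA (-1.60), MKNK2 (-1.36) and ANKZF1 (-1.36). With each line set against its OC untreated library, RAPSN kept its call and the other 7 were not called. The choice of untreated library and the library set cannot be told apart here. In PF382, ANKZF1, a factor of ribosome quality control, was at 61.2, 58.4 and 58.3 CPM with AZA, against 129 CPM in untreated OLC and 41.1 CPM in untreated OC.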

How the results depend on the processing

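For AZA against untreated, the counts of genes called higher and lower were 64 and 84, and became 240 and 230 with DESeq2, 25 and 16 with the AZA set only, 1462 and 1196 with slopes in the model, 1757 and 1355 against the OC library, 1210 and 597 against the mean of both untreated libraries, 9 and 15 with 4 PF382 libraries, and 40 and 1 with 5. Limma-voom called 186 lower. Without 1 dose they ranged from 25 to 102 and from 30 to 117, lowest without 250 nM and highest without 125 nM. Calls outside both untreated libraries (60 and 49) became 222 and 138 with DESeq2, 24 and 7 with the AZA set only, 1283 and 642 with slopes in the model, 1150 and 662 against OC, 1118 and 493 against the mean, 9 and 8 with 4 libraries, 1 lower with 5, and 120 lower with limma-voom, and ranged from 24 to 98 and from 11 to 74 without 1 dose. Dose slopes (990 and 660) became 401 and 258 with DESeq2 and ranged from 26 to 867 and from 4 to 630 without 1 dose. Differences from TLOm1 (20 and 26) became 96 and 178 with DESeq2, 3 and 14 with limma-voom, 2 and 6 with the AZA set only, 904 and 1045 with slopes in the model and 166 and 47 against OC libraries, and ranged from 2 to 35 and from 5 to 53 without 1 dose of either line. Other normalization, no filter or a filter on PF382 libraries left every count within 1.5 times. Against OC, the log2 fold changes of ADM (4.51), EFNA3 (1.59), SLC16A3 (0.97), DDIT4 (0.87), MKNK2 (0.71), PFKFB3 (0.64), ANKZF1 (0.53), RORA (0.17) and the hexokinase HK1 (0.14) turned positive, as did ADM (0.28) against the mean of both, and the differences from TLOm1 for RORA (1.07), MKNK2 (0.62) and ANKZF1 (0.45) against OC libraries. The slope of DUSP10 (0.70) was between -0.069 (without 500 nM) and 1.34 (without 125 nM). Of 1252 recomputed values of named genes, 993 kept direction and call, 245 lost the call and 14 reversed. The cause was not tested. No paired analysis was possible because each condition had 1 library and the labels carry no replicate numbers. With 1 library per dose and 1 untreated library, a change in a single culture and an effect of AZA cannot be told apart, and genes under 1 CPM have few counts.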

Other observations

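Some genes were higher at 125 nM AZA than in either untreated library and fell with dose. IGLL1, the surrogate light chain component of early lymphocytes, was at 11.5, 6.11 and 0.748 CPM at 125, 250 and 500 nM, against 0.861 and 1.17 CPM untreated (slope -1.74 per doubling, SE 0.29, edgeR adjusted p = 0.0043). The 2 lower doses lay above both untreated libraries. At 500 nM it was near the untreated level, with 21 counts against 21 in untreated OLC and 20 in untreated OC. With decitabine IGLL1 was at 5.76, 8.83 and 7.24 CPM at 5, 12.5 and 25 nM. TNFRSF4, the OX40 costimulatory receptor, was at 1.81, 1.34 and 0.249 CPM, against 0.451 and 0.409 CPM untreated (slope -1.18, adjusted p = 0.0073), and PTPN6, the SHP-1 phosphatase, was at 93.4, 84.1 and 51.0 CPM, against 78.9 and 51.5 CPM (slope -0.43, adjusted p = 6.2e-05). Without 500 nM none of these 3 slopes was called. HKDC1, a hexokinase-like gene, was below both at every dose, at 2.35, 1.38 and 0.249 CPM, against 12.2 and 8.12 CPM (slope -1.38, adjusted p = 0.00057).

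Over all genes tested, 5.55% rose and 3.7% fell with AZA dose, and 10.2% rose and 7.21% fell with decitabine dose, and several of the counts here are near those shares. Transcription factors of the T lineage, 36 tested, rose with AZA dose in 4 and fell in 2, and with decitabine dose 15 rose and 3 fell. Imprinted genes, 28 tested, rose in 2 and fell in 1 with AZA dose, and with decitabine dose 10 rose and 1 fell. Adhesion genes rose with decitabine dose in 12 of 34 and fell in 4. Of 23 genes of DNA methylation and demethylation, 1 rose and 1 fell with AZA dose, of 24 genes of AZA uptake and metabolism 0 rose and 3 fell, and of 20 antifolate genes 0 rose and 3 fell. Of 44 tumor suppressors known to be silenced in cancer, 4 rose and 2 fell with AZA dose, and BNIP3 was called lower over the doses together. Class II antigen presentation genes had no slope call in either direction among 17.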
